A study of Mus musculus with 20 samples.

Results

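The transcription factor p53 (gene Trp53) and 9 genes it is known to switch on were followed in the livers of 20 male mice: Cdkn1a, Mdm2, Ccng1, Bax, Phlda3, Gdf15, Trp53inp1, Sesn1 and Zmat3. The 10 genes were found by symbol in the deposited table of 38924 genes, where each symbol has 1 row. They were taken by name, with no threshold on their values. In an unstressed cell p53 is made and destroyed continually, because Mdm2 marks it for degradation. Damage to DNA and other stresses stop this, and p53 then raises genes that halt the cell cycle, start cell death, temper growth signals or limit p53 itself. Because p53 is controlled mainly as a protein, the transcripts of its targets are commonly read as a sign of its activity, although several of them also answer to other factors.

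The mice were C57BL/6J WT animals and animals lacking thrombospondin 1 (TSP-1, gene Thbs1) in the whole body, bought at 5 weeks of age. After 1 week of acclimation they received control diet or CDAHFD for 12 weeks. CDAHFD is a high fat diet that lacks choline, limits methionine and supplies defined L-amino acids in place of protein. It leads to fatty liver with inflammation and fibrosis. Each of the 4 groups held 5 mice. NDWT and NDKO stand for WT and TSP-1 null mice on control diet, and HFWT and HFKO for the same genotypes on CDAHFD. Poly(A) RNA of whole liver pieces was sequenced, and a level is given in FPKM, fragments per kilobase of gene and per unit of library size. The methods state that the sequenced animals were a random draw from larger groups.

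The libraries held 15641545 to 23276322 fragments, and 10 hepatocyte markers together gave 28805 to 53594 FPKM across the libraries. Thbs1 went against the labels. NDWT libraries gave 0.058 to 0.326 FPKM of it, NDKO 0.986 to 1.90, HFWT 3.46 to 6.10 and HFKO 3.05 to 4.40. All 5 NDKO libraries thus lay above all 5 NDWT libraries (log2FC 2.28, SE 0.24, limma FDR 1.02e-05), and those on CDAHFD overlapped. These values are per gene and cannot tell which exons were read. Every genotype below is that of the library labels.

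The promoters come first, and were searched for the letters p53 is known to read. A p53 response element is made of a pair of similar decamers, each of 10 bases. RefSeq promoter windows (GRCm38.p6, 250 bases before a start and 50 after it) were found for 8 of the 10 genes, with 11 starts in all. Trp53inp1 and Zmat3 were not among them. The p53 decamer in its consensus form, which reads the same on both strands, stood in 6 of the 11 windows and in 8.356% of 32851 windows of all genes. A pair of decamers with at most 1 mismatch in each and at most 13 bases between them, counted with any overlap with single decamers, stood in 2 of the 11 windows and in 2.709% of all. The pairs belonged to Cdkn1a and Ccng1. The 250 bases before the start of these genes and of Phlda3, the member that differed most between the diets, read as follows from 5′ to 3′ on the strand of the gene. Capitals mark the pair with no base between its decamers, and Phlda3 has no pair.
Cdkn1a, chr17:29090729-29090978, plus strand: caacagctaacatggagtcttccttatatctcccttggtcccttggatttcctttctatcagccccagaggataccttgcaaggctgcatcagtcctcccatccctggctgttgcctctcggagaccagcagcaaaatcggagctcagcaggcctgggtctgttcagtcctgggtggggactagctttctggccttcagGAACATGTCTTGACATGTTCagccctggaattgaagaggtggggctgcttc
Ccng1, chr11:40755287-40755536, minus strand: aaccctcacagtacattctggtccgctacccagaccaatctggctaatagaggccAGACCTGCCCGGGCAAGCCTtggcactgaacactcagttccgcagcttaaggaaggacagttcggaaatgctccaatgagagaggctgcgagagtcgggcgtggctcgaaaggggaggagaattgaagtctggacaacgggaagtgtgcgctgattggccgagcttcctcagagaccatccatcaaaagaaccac
Phlda3, chr1:135765835-135766084, plus strand: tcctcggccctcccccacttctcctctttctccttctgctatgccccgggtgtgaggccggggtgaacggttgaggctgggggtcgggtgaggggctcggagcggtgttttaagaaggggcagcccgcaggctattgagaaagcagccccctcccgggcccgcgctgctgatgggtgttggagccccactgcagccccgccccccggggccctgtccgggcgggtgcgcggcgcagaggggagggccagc

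The Cdkn1a pair in capitals departs from the consensus at 1 position, and begins 51 bases before the upstream of 2 annotated starts, 2841 bases before the other. A further consensus decamer of Cdkn1a, GGACTAGCTT, begins 73 bases before that upstream start, and forms another pair with the first decamer in capitals, with 12 bases between them and 0 departures. The Ccng1 pair also has no base between its decamers and 1 departure, and begins 195 bases before the start. Single decamers stood in the windows of Bax (AGGCAAGCTT, 201 bases before the start), Mdm2 (GAACTTGCCT, 186 bases before), Trp53 (GGACTTGCCC, 75 bases before) and the second start of Sesn1 (AAGCTTGTTT, 173 bases before). No such decamer was found in the windows of Phlda3 and Gdf15. A match is a string of letters in a window, and these data hold no measure of p53 binding. Sequence outside these windows was not searched, so a window without a match does not show that a gene lacks a response element.

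On CDAHFD, levels of the 10 genes were higher in WT livers without exception, and in livers labelled TSP-1 null for 9 of 10. Phlda3 and Cdkn1a stood out in WT, and Phlda3 and Gdf15 in TSP-1 null. Between genotypes on the control diet, Cdkn1a and Gdf15 moved in opposite directions. On CDAHFD no member passed the test between genotypes. These statements rest on limma over 14524 genes on log2(FPKM + 0.1), where a gene passed with a Benjamini-Hochberg FDR below 0.05 and a log2FC beyond 0.58 in either direction. All 10 members could be tested.

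**Figure D1:**
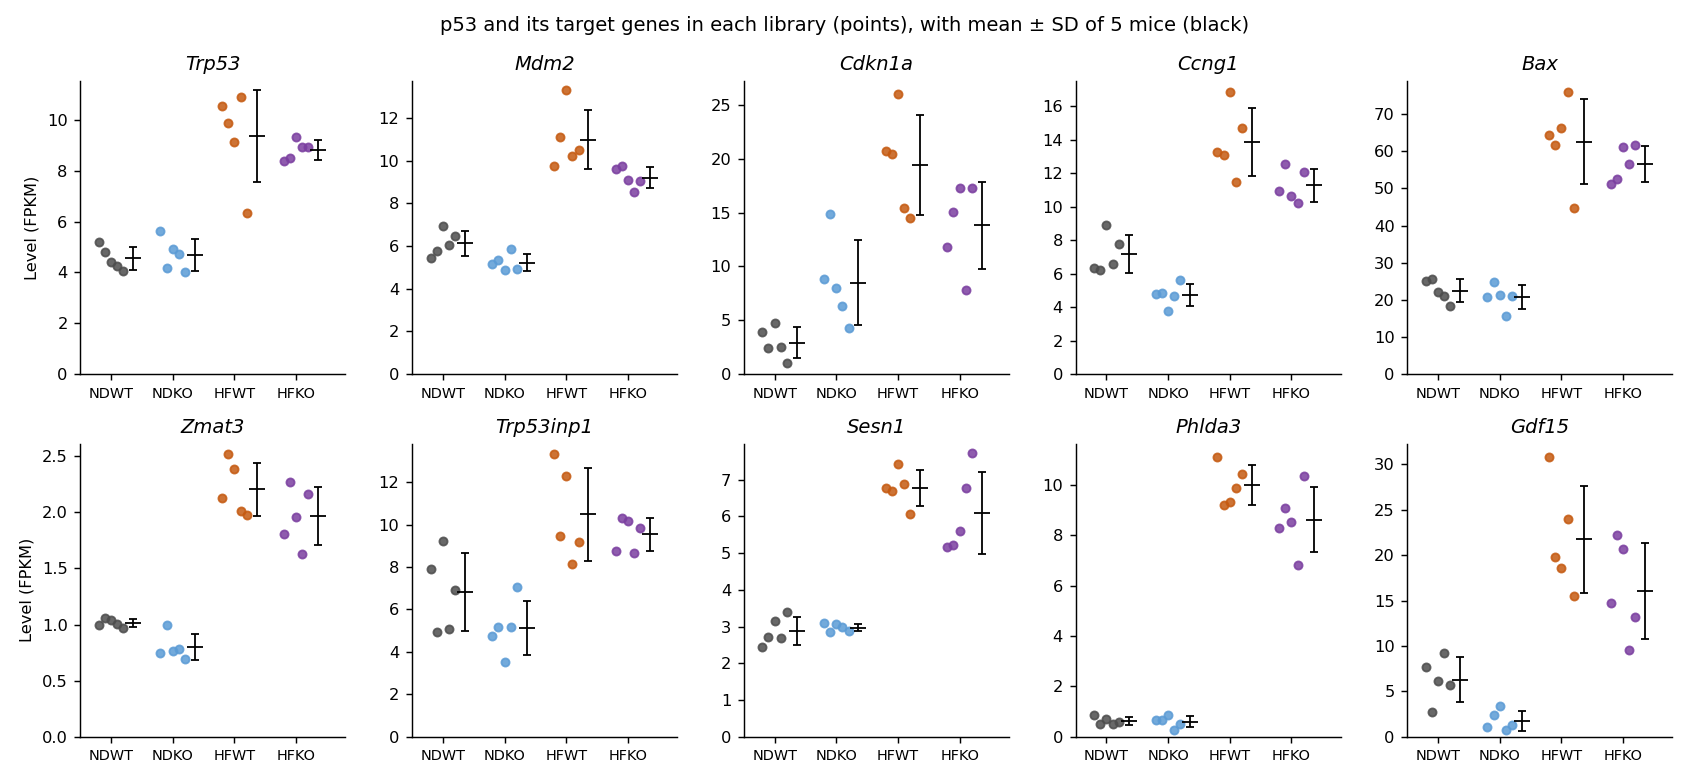
Level of each gene in FPKM (vertical axes, from 0) in every library of the 4 groups, with 5 mice in each. Black marks are the mean ± SD. Phlda3 lies under 1 FPKM in all 10 control diet libraries and above 6 in all 10 CDAHFD libraries, whereas Cdkn1a in NDKO lies between NDWT and the CDAHFD groups.

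The regulators come first. Trp53 encodes p53 itself, and its FPKM was 5.19, 4.81, 4.43, 4.26 and 4.05 in NDWT and 10.5, 9.87, 9.15, 10.9 and 6.34 in HFWT. In NDKO it was 5.63, 4.18, 4.91, 4.73 and 4.04, and in HFKO 8.38, 8.52, 9.35, 8.92 and 8.93. The diets did not overlap in either genotype, with means 2.06-fold apart in WT and 1.88-fold in TSP-1 null, and HFWT library 5 was the lowest on CDAHFD. In this library the small RNA gene Gm23935 took 1.08% of fragments. The log2FC was 1.00 in WT (SE 0.12, FDR 4.28e-07) and 0.90 in TSP-1 null (SE 0.12, FDR 1.85e-06).

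Mdm2 encodes the ligase that marks p53 for degradation and is itself a p53 target. Its FPKM was 5.42, 5.76, 6.95, 6.03 and 6.45 in NDWT and 9.77, 11.1, 13.3, 10.2 and 10.5 in HFWT, and the libraries labelled TSP-1 null gave 4.87 to 5.84 on control diet and 8.51 to 9.75 on CDAHFD. CDAHFD libraries lay above control libraries in both genotypes. The log2FC was 0.83 in WT (SE 0.08, FDR 3.92e-08) and 0.81 in TSP-1 null (SE 0.08, FDR 6.73e-08). Levels of Mdm2 thus differed less between the diets than those of any other member but Trp53inp1 in WT and Cdkn1a in TSP-1 null.

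The cell cycle genes are Cdkn1a, which encodes the kinase inhibitor p21, and Ccng1, the gene of cyclin G1, which acts back on Mdm2. The Cdkn1a FPKM was 3.90, 2.40, 4.73, 2.49 and 1.06 in NDWT and 20.7, 20.4, 26.0, 15.4 and 14.5 in HFWT. It was 8.85, 14.8, 8.04, 6.36 and 4.32 in NDKO and 11.8, 15.0, 17.3, 7.78 and 17.3 in HFKO. In WT the diets were far apart, whereas in TSP-1 null NDKO libraries 1, 2 and 3 lay above HFKO library 4. Cdkn1a rose with CDAHFD in WT (log2FC 2.82, SE 0.34, FDR 4.999e-07), a 6.65-fold ratio of means. In TSP-1 null the log2FC was 0.76 (SE 0.34, 95% CI 0.04 to 1.47) at an FDR of 0.0553, short of the threshold.

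Whether Cdkn1a passed in TSP-1 null depended on the pseudocount, the model and single libraries, and neither other scaling made it pass. With median of ratios scaling the log2FC was 0.23 (FDR 0.586), and with quantile normalization 0.30 (FDR 0.428), both far from the threshold. Without NDKO library 2, which had the highest Cdkn1a level of its group, the log2FC in TSP-1 null was 0.99 (FDR 0.0143), and without HFKO library 4, the lowest of its group, it was 0.95 (FDR 0.0217). The FDR was also under 0.05 without NDWT library 3 (0.0440) or 5 (0.0253), which enter only the shared estimate of the spread. Blocking on replicate number gave an FDR of 0.0233. Cdkn1a also passed with a pseudocount of 1 (limma FDR 0.0368), with voom on recovered fragments (0.0275) and with only the groups compared (0.0458).

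Ccng1 rose in both genotypes. NDWT libraries gave 6.37, 6.24, 8.91, 6.57 and 7.75 FPKM, and HFWT libraries 13.3, 13.1, 16.9, 11.5 and 14.7. NDKO libraries gave 4.79, 4.83, 3.78, 4.68 and 5.63 FPKM, and HFKO libraries 10.96, 12.58, 10.64, 10.23 and 12.07. The diets did not overlap, and the log2FC was 0.94 in WT (SE 0.12, FDR 6.16e-07) and 1.24 in TSP-1 null (SE 0.12, FDR 1.83e-08).

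The genes linked to cell death are Bax, whose protein opens the outer mitochondrial membrane, Zmat3, an RNA binding protein, and Trp53inp1, a stress protein that acts with p53 and in autophagy. Bax FPKM was 18.4 to 25.6 in NDWT and 44.6 to 75.9 in HFWT, with 15.7 to 24.8 in NDKO and 51.1 to 61.6 in HFKO. It had the highest level of the 10 genes in each group and rose by nearly the same log2FC in both genotypes, 1.46 in WT (SE 0.13, FDR 7.61e-09) and 1.45 in TSP-1 null (SE 0.13, FDR 9.39e-09). Zmat3 FPKM was 0.967 to 1.06 in NDWT and 1.97 to 2.52 in HFWT, with 0.697 to 0.996 in NDKO and 1.63 to 2.27 in HFKO. Its diets were likewise apart in both genotypes, with a log2FC of 1.04 (SE 0.11, FDR 4.81e-08) and 1.20 (SE 0.11, FDR 8.43e-09).

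Trp53inp1 was the only member whose diets overlapped in WT. Its FPKM was 7.91, 4.92, 9.21, 5.08 and 6.93 in NDWT and 13.3, 9.47, 12.3, 8.16 and 9.19 in HFWT, with 3.51 to 7.06 in NDKO and 8.64 to 10.3 in HFKO. The log2FC was 0.63 in WT (SE 0.18, FDR 0.00415), just past the fold threshold. It was 0.53 without NDWT library 2, 0.54 without NDWT library 4, 0.54 without HFWT library 1 and 0.57 without HFWT library 3, each under that threshold. In TSP-1 null it was 0.91 (SE 0.18, FDR 1.75e-04).

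Growth and stress signals are represented by Sesn1, a sestrin that lowers mTORC1 activity, Phlda3, which competes with Akt at the membrane, and Gdf15, a secreted hormone of stressed tissue that lowers food intake. Sesn1 FPKM was 2.45 to 3.40 in NDWT and 6.07 to 7.41 in HFWT, with 2.86 to 3.09 in NDKO and 5.16 to 7.71 in HFKO. Its log2FC was 1.21 in WT (SE 0.11, FDR 5.07e-09) and 0.99 in TSP-1 null (SE 0.11, FDR 8.58e-08).

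Phlda3 had the widest gap between the diets of the 10 genes. Its FPKM was 0.882, 0.50, 0.721, 0.523 and 0.579 in NDWT and 11.1, 9.19, 9.30, 9.87 and 10.4 in HFWT. In NDKO it was 0.653, 0.678, 0.858, 0.281 and 0.508, and in HFKO 8.28, 9.06, 8.52, 6.82 and 10.4. The means were 15.6-fold apart in WT and 14.5-fold in TSP-1 null. The log2FC was 3.79 (SE 0.19, FDR 3.53e-12) and 3.70 (SE 0.19, FDR 6.73e-12), higher than for 99.0% and 99.2% of the tested genes. Control diet libraries held only 7 to 32 fragments of Phlda3, so these values lean on the pseudocount of 0.1. With a pseudocount of 1 they were 2.74 and 2.59.

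Gdf15 FPKM was 7.68, 2.72, 6.10, 9.28 and 5.71 in NDWT, 30.8, 19.8, 18.5, 24.0 and 15.5 in HFWT, 1.05, 2.35, 3.41, 0.743 and 1.25 in NDKO, and 14.7, 22.2, 20.7, 9.56 and 13.2 in HFKO. CDAHFD libraries lay above control libraries in both genotypes, and NDKO held the lowest values. The log2FC was 1.84 in WT (SE 0.36, FDR 1.31e-04), with a 3.45-fold ratio of means, and 3.25 in TSP-1 null (SE 0.36, FDR 1.48e-07), with a 9.13-fold ratio.

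In counts, 10 of 10 members passed the test upward in WT, where 48.8% of all tested genes passed, 44.1% upward and 4.62% downward. In TSP-1 null 9 of 10 passed upward, where 45.9% of all genes passed, 41.9% upward and 4% downward. The diets did not overlap for 9 members in WT and 9 in TSP-1 null, against 56.2% and 57.8% of all genes. The members' median log2FC was 1.13 in WT and 1.10 in TSP-1 null, where the median of all genes was 0.53 and 0.50. Relative to all genes the members' medians were therefore 0.60 in both. The 2 comparisons use different mice.

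**Figure D2:**
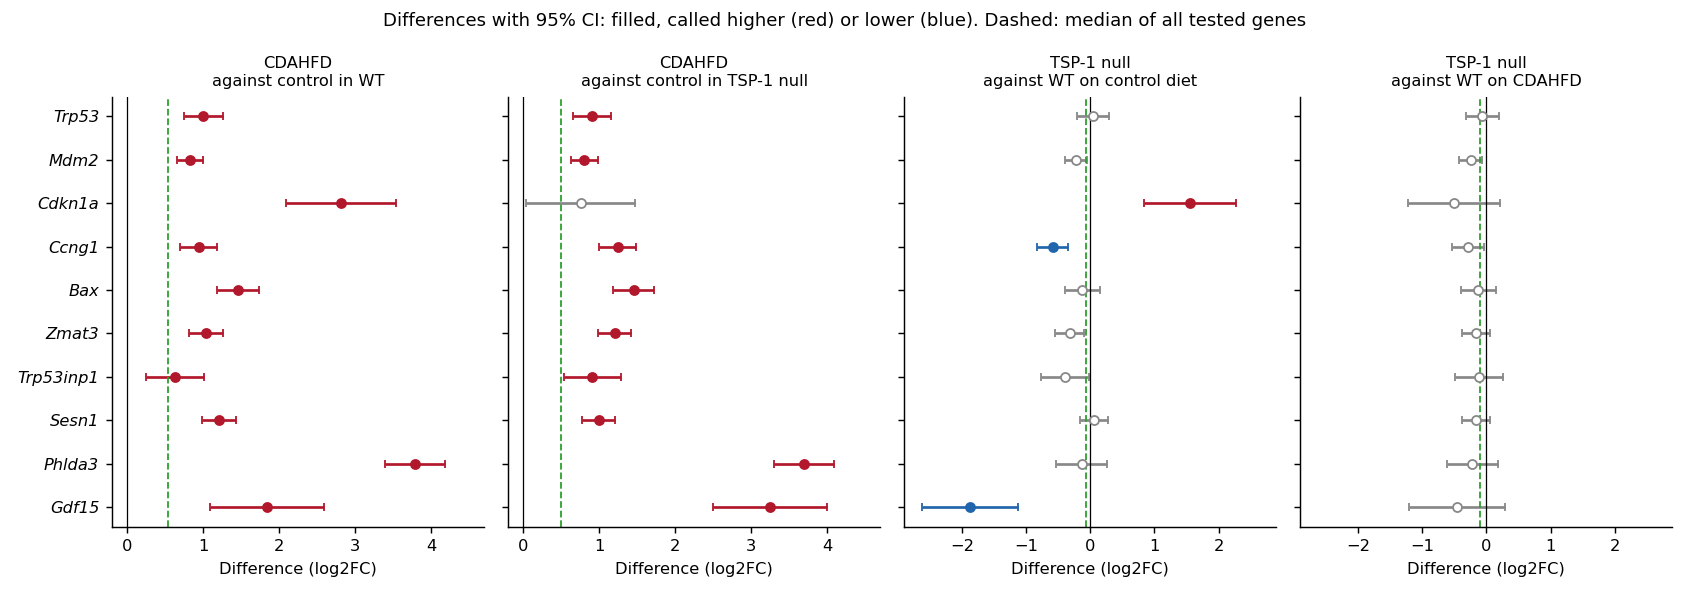
Difference of each gene as log2FC with its 95% CI in 4 comparisons (horizontal axes; the first pair starts near 0 and the other pair is centred on 0). Filled points passed the test, and the dashed line is the median of all tested genes, 0.53 in WT for the diets. With diet the points sit right of that line, and between genotypes on control diet only Cdkn1a is red and only Ccng1 and Gdf15 are blue.

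How many members pass depends on how libraries are scaled, since the median gene was itself higher on CDAHFD in these FPKM. Median of ratios scaling moved the median of all genes from 0.53 to −0.01 in WT and from 0.50 to −0.01 in TSP-1 null. The members then passed in 5 of 10 cases in each genotype, against 38.2% and 35.8% of all genes. Those in WT were Cdkn1a (log2FC 2.26), Bax (0.90), Phlda3 (3.26), Gdf15 (1.28) and Sesn1 (0.66), and those in TSP-1 null were Ccng1 (0.71), Bax (0.92), Phlda3 (3.21), Gdf15 (2.74) and Zmat3 (0.71). Quantile normalization left 4 in each genotype, against 34.6% and 31.9% of all genes, with Bax, Phlda3 and Gdf15 in both, Cdkn1a in WT and Ccng1 in TSP-1 null. No member's diet difference turned negative under either scaling.

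**Figure D3:**
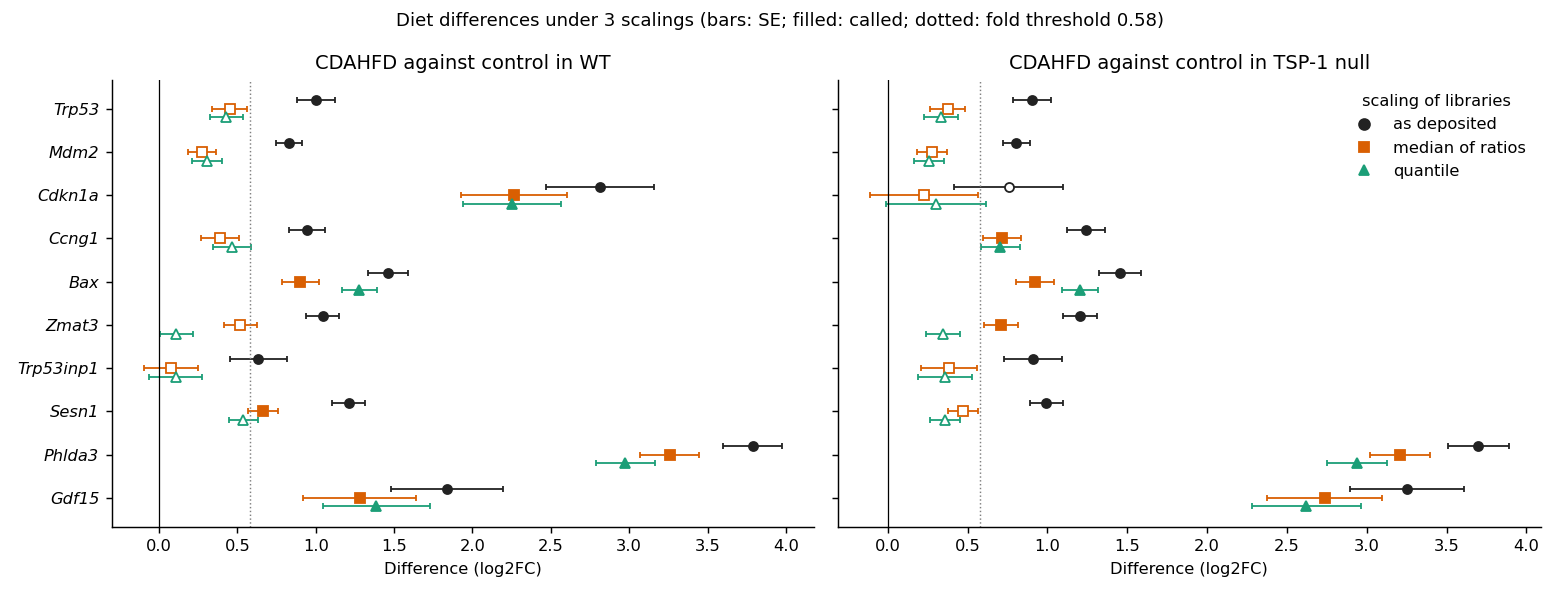
Diet difference of each gene as log2FC with its SE (horizontal axis) for values as deposited and under 2 other scalings of the libraries. Filled symbols passed the test and the dotted line is the fold threshold of 0.58. Bax, Phlda3 and Gdf15 stay filled in both genotypes, whereas Trp53, Mdm2 and Trp53inp1 fall below the line.

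Markers of several other liver cell types moved with the diet too. Their counts are read against all tested genes, of which 44.1% (WT) and 41.9% (TSP-1 null) passed upward. Downward, 4.62% and 4% of all genes passed. Markers of stellate cells and myofibroblasts passed upward in 10 of 10 cases in both genotypes, and their summed FPKM was 52.0 to 71.8 on control diet and 284 to 544 on CDAHFD. Of 8 cholangiocyte markers 6 were tested and all 6 passed, with sums of 12.6 to 18.4 and 184 to 493. Spp1 alone averaged 13.6 FPKM in NDWT and 379 in HFWT, where the median sums were 16.1 and 480. Macrophage markers passed upward in 7 (WT) and 8 (TSP-1 null) of 10 cases, with sums of 227 to 382 and 736 to 1642. The Kupffer cell lectin gene Clec4f, named after its values were seen, was the 1 macrophage marker that fell (log2FC −1.22 in WT, −0.77 for TSP-1 null). Of 8 neutrophil markers 4 were tested and all 4 passed, with Mpo at 0 in NDWT and NDKO and Ly6g at 0 in NDWT and HFWT. T and B cell markers passed in 9 of 10 cases. Testing needed more than 0.5 FPKM in 5 libraries or more. Among the markers above, Muc1, Timp1, Itgam, Ccr2, Cd2 and Cd8a were under 0.5 FPKM in every control diet library. They were tested only through CDAHFD libraries, so this filter favoured upward calls in the counts of tested markers. Hepatocyte markers summed to 38642 to 53594 on control diet and 28805 to 47852 on CDAHFD, with 2 of 10 lower in WT and 4 for TSP-1 null. Of 8 endothelial markers 2 (25%, WT) and 4 (50%, TSP-1 null) passed upward, below the share of all genes in WT and near it in TSP-1 null. Of 5 tested erythroid markers 1 and 2 passed downward. In whole liver, more RNA per cell and more cells of a type cannot be told apart, and the part of these cells in the p53 target levels was not tested.

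Between genotypes on control diet, 3 of 10 members passed, 1 upward and 2 downward, against 4.77% of all tested genes, 1.74% upward and 3.03% downward. Cdkn1a was higher in libraries labelled TSP-1 null (8.48 ± 3.96 FPKM against 2.92 ± 1.43, SD, n = 5 each), a log2FC of 1.55 (SE 0.34, FDR 0.00602). The groups touched, as NDKO library 5 at 4.32 FPKM lay under NDWT library 3 at 4.73. Gdf15 was lower (1.76 ± 1.10 FPKM against 6.30 ± 2.45, SD, n = 5), a log2FC of −1.87 (SE 0.36, FDR 0.00234), with NDKO library 3 above NDWT library 2. Both calls held under every scaling, filter and left-out library tried, and these are the comparisons for which Thbs1 ran against the labels.

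Ccng1 was lower in every NDKO library than in any NDWT library (4.74 ± 0.659 against 7.17 ± 1.14 FPKM, SD, n = 5), with a log2FC of −0.58 (SE 0.12, FDR 0.00315) at the edge of the fold threshold. The FDR stayed under 0.05, but the log2FC was −0.50 without NDWT library 3, −0.55 without NDWT library 5, −0.51 without NDKO library 3 and −0.51 with median of ratios scaling. All genes had a median log2FC of −0.07 in this comparison. It was the 1 member without overlap, against 9.03% of all genes.

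The other 7 members did not pass on control diet. Zmat3 had a log2FC of −0.32 (95% CI −0.54 to −0.10, FDR 0.0551), Trp53inp1 of −0.39 (−0.77 to −0.01, FDR 0.167) and Mdm2 of −0.22 (−0.40 to −0.05, FDR 0.0865). For Trp53 it was 0.04 (−0.21 to 0.29), for Sesn1 0.05 (−0.17 to 0.27), for Bax −0.12 (−0.40 to 0.15) and for Phlda3 −0.13 (−0.53 to 0.27). These intervals bound the differences but do not show equal levels.

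On CDAHFD, 0 of 10 members passed between genotypes by limma, and 0 passed under any alternative tried, limma-voom on recovered fragments included. Of all tested genes 0.496% passed. An unadjusted p under 0.05 was seen for 2 members, Mdm2 and Ccng1, and for 17.2% of all genes, a like share. All 10 log2FC were negative, from −0.06 for Trp53 to −0.51 for Cdkn1a, where the median of all genes was −0.10. Under median of ratios scaling Trp53 was at 0.04. Mdm2 was lower in every HFKO library (8.51 to 9.75 FPKM) than in any HFWT library (9.77 to 13.3 FPKM), with a log2FC of −0.25 (95% CI −0.42 to −0.07, FDR 0.141). It was the 1 member without overlap, against 4.98% of all genes. The log2FC was −0.51 for Cdkn1a (−1.23 to 0.21, FDR 0.458), −0.46 for Gdf15 (−1.21 to 0.29, FDR 0.526) and −0.29 for Ccng1 (−0.53 to −0.04, FDR 0.216).

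Whether the genotype difference itself changed with diet was tested as an interaction, the difference on CDAHFD less that on control diet. By limma 0 of 10 members passed, against 0.647% of all genes. The unadjusted p was under 0.05 for 2 members, Cdkn1a and Gdf15, and for 15.1% of all genes, again a like share. Cdkn1a came closest, with an interaction of −2.06 (SE 0.49, 95% CI −3.07 to −1.04) and an FDR of 0.05004, just above the threshold. It passed in 9 of 29 alternatives, whose FDR over all 29 ran from 0.0285 to 0.0934. Among them were the fits without NDWT library 1 (FDR 0.0477), NDWT library 3 (0.0415) or NDKO library 5 (0.0293), and median of ratios scaling (0.0393). Gdf15 had the opposite sign, with 1.41 (SE 0.51, 95% CI 0.35 to 2.47, FDR 0.184). In order of mean level Cdkn1a therefore ran NDWT, NDKO, HFKO and HFWT, where NDKO and HFKO, and HFKO and HFWT, did not differ past the threshold. For Gdf15 the order was NDKO, NDWT, HFKO and HFWT, and the last pair did not differ past the threshold.

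The mice of 1 diet were also compared with each other, to see whether other members followed Cdkn1a from animal to animal. On CDAHFD Cdkn1a and Zmat3 had a Pearson r of 0.86 over 10 libraries (two-sided permutation test, p = 0.0014, adjusted over 18 relations 0.0257). Spearman's rho was 0.74 (permutation p = 0.0195, adjusted 0.140), and r was 0.70 without the 2 libraries farthest from the median of Cdkn1a. After the group means were taken off it was 0.82. It was the only one of 18 relations to pass, and none passed under median of ratios scaling or quantile normalization, or without HFWT library 3, 4 or 5 or HFKO library 1, 4 or 5. Without NDWT library 3, 2 relations passed. On control diet the genotypes differed in Cdkn1a, although the groups touched. The strongest relation there was with Ccng1, at a Pearson r of −0.68 (permutation test, adjusted p = 0.0921). With the group means taken off, that r was −0.11, and 5 mice of 1 genotype are too few for a correlation.

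Among all tested genes, those most like Cdkn1a over the 20 libraries after the 4 group means were taken off were Tubb2a (r = 0.86), Gtf2ird1 (0.85), 1700017B05Rik (0.82), Tmem189 (0.81) and Trp53inp2 (0.80). No p is given for genes picked as the most alike. Trp53inp2, a relative of Trp53inp1 in autophagy, had an r of −0.54 with the group means left in.

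A list of 68 other genes of the p53 pathway was then read, of which 67 were found and 61 tested. With CDAHFD 36 were higher and 2 lower in each genotype, which is 62.3% of those tested against 48.8% and 45.9% of all genes. Their median log2FC was 0.68 and 0.65, only 0.15 above that of all genes in both. Median of ratios scaling left 16 higher and 8 lower in WT (39.3% against 38.2% of all genes), with 16 and 5 for TSP-1 null (34.4% against 35.8%). Quantile normalization left 14 higher and 6 lower in WT (32.8% against 34.6%), with 12 and 3 for TSP-1 null (24.6% against 31.9%). Under both scalings the list's share was near or below that of all genes.

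The counts by role are read against the 44.1% (WT) and 41.9% (TSP-1 null) of all genes that passed upward. Of 9 genes placed under cell cycle arrest, a role that here also holds spindle and microtubule genes, 8 were higher in each genotype. Their median log2FC was 1.79 and 1.51. Among them were Psrc1, a spindle protein (0.0444 ± 0.0279 to 0.953 ± 0.178 FPKM in WT, log2FC 2.87), Plk2, a polo-like kinase (5.62 ± 0.959 to 15.7 ± 2.27 FPKM, log2FC 1.47), and Ckap2, a microtubule protein (log2FC 3.57 in TSP-1 null). Of 11 genes of cell death, 5 passed upward in WT and 6 in TSP-1 null, near those shares, and their median log2FC in WT, 0.47, was below the 0.53 of all genes. Tnfrsf10b, a death receptor, went from 0.0804 ± 0.0502 to 0.925 ± 0.153 FPKM in WT (log2FC 2.54), and Apaf1, the scaffold of the apoptosome, from 0.467 ± 0.111 to 2.02 ± 0.267 (log2FC 1.92). These are means ± SD of 5 mice, and at such low levels the log2FC leans on the pseudocount. Psrc1, Ckap2 and Tnfrsf10b were under 0.5 FPKM in every control diet library, and so were tested only through CDAHFD libraries.

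Among 13 genes of metabolism and autophagy, 2 passed downward in each genotype, with 5 upward in WT and 6 in TSP-1 null. Dram1, a lysosomal protein of autophagy, rose (log2FC 2.63 and 3.07), as did Abhd4, a lipid hydrolase (1.02 in WT). The liver-rich glutaminase gene Gls2 fell in both genotypes (log2FC −0.74 and −0.71). Trp53inp2 fell in WT (−0.68), and Dcxr, a sugar reductase, fell in TSP-1 null (−0.97). Of 7 damage kinases and cofactors 6 and 5 were higher, of 6 DNA repair genes 4 and 3, and of 5 regulators of p53 2 and 1. Of the 10 secreted, surface and other genes 6 and 7 were higher.

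**Figure D4:**
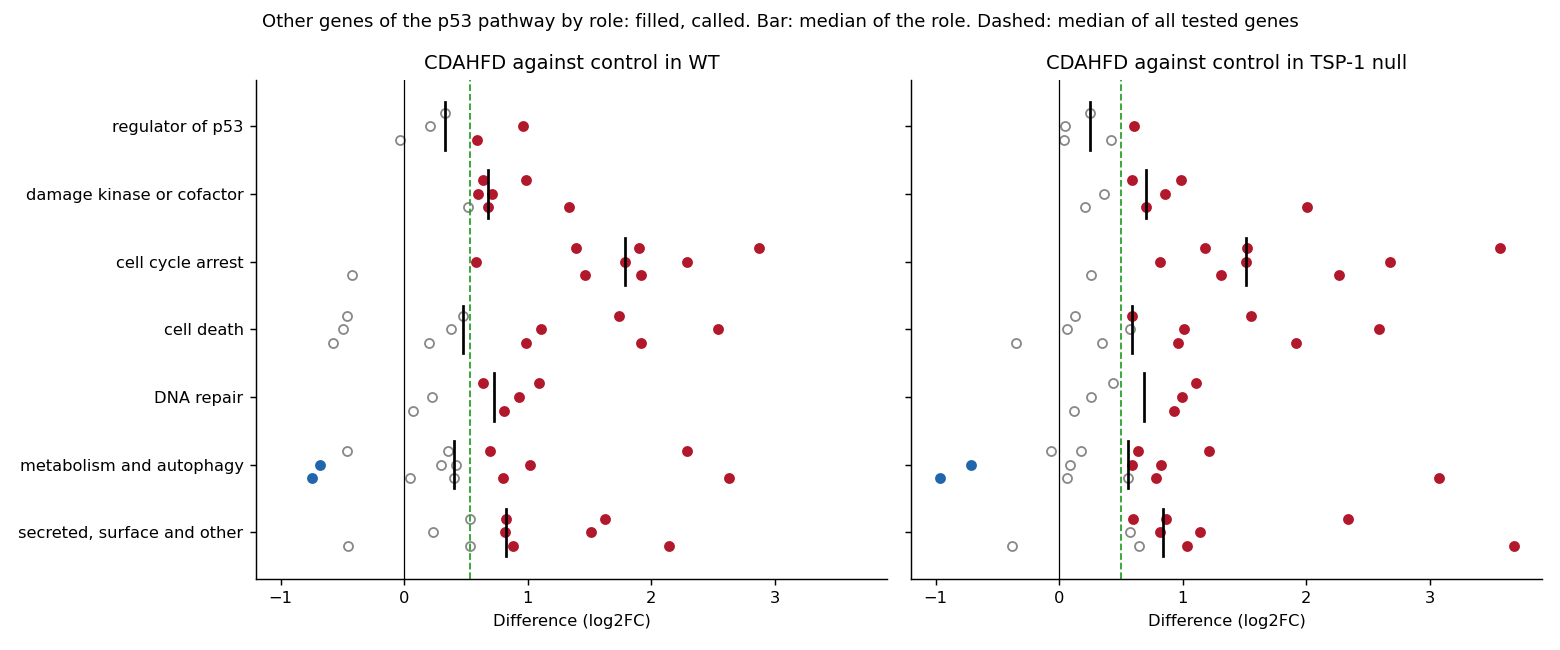
Diet difference as log2FC (horizontal axis) of 61 other genes of the p53 pathway, in rows by role, for both genotypes. Filled points passed the test, bars are the median of a role, and the dashed line is the median of all tested genes. The cell cycle arrest row, which also holds spindle and microtubule genes, has its median farthest right, at 1.79 in WT and 1.51 in TSP-1 null.

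The genotypes on control diet gave 8 calls in this list, 2 higher and 6 lower (13.1%). Of all tested genes 4.77% passed, 1.74% higher and 3.03% lower. Higher in libraries labelled TSP-1 null were Gls2 (log2FC 0.72, FDR 0.00862) and Ddit4, an inhibitor of mTORC1 (1.07, FDR 0.0322). Among the lower were the death receptor Fas (−0.80, FDR 4.12e-04), the BH3-only gene Bid (−0.59), Plk2 (−0.58), the peptide transporter Tap1 (−0.74) and the checkpoint kinase Chek2 (−1.01). Without NDWT library 5 or NDKO library 1 the calls were 5 each.

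On CDAHFD 1.64% of the tested genes of the list passed, against 0.496% of all genes. The only call in the list was Gls2, again higher (log2FC 0.75, FDR 0.0370). It was lost without HFWT library 2, 3 or 5 or HFKO library 1, 2, 3 or 4, each of which left 0 calls in the list, and without HFKO library 5 there were 2. The interaction passed for 2 genes of the list (3.28%, against 0.647% of all genes), among them Trp53inp2 (0.62, SE 0.14, FDR 0.0492). Without NDWT library 2, 4 or 5 or HFWT library 1 the list again had 2 interaction calls, without NDKO library 2 it had 3, and without any other single library it had 1.

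Genes that p21 is known to lower through the DREAM repressor were mostly higher on CDAHFD. Of 22 such genes 17 were tested. With CDAHFD 16 were higher in WT and 17 in TSP-1 null, against 44.1% and 41.9% of all genes. Mki67, Bub1b and Aurkb were under 0.5 FPKM in every control diet library, and passed the filter for testing only through CDAHFD libraries. For such genes the filter favours a higher call, so these counts are not read as a result about the list. Their median log2FC was 2.12 and 2.72. Mcm6, part of the replicative helicase, went from 1.14 ± 0.255 to 6.73 ± 0.837 FPKM in WT (log2FC 2.48), and the proliferation marker Mki67 from 0.331 ± 0.0781 to 2.47 ± 0.306 (log2FC 2.58; SD, n = 5). On control diet 3 of the 17 were lower in NDKO, against 3.03% of all genes: Bub1b (−0.87), Aurkb (−1.05) and Mcm5 (−0.75). All 3 were low, with mean FPKM in NDWT and NDKO of 0.236 and 0.0854 for Bub1b, 0.195 and 0.0466 for Aurkb, and 0.549 and 0.286 for Mcm5. Their log2FC therefore leans on the pseudocount of 0.1. A link to the level of Cdkn1a was not tested. These genes mark dividing cells of any type, and which cells held them was not tested.

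Gdf15 also answers to the integrated stress response, so 18 genes of its factors ATF4 and CHOP were read, with 17 tested. With diet 9 were higher and 0 lower in WT, 9 higher and 2 lower in TSP-1 null. These are 52.9% of the tested genes of the list in WT, near the 48.8% of all genes, and 64.7% against 45.9% in TSP-1 null. Atf3 had the lowest FDR (log2FC 4.79 and 5.22). On control diet Cth (1.25) and Atf5 (0.61) were higher in libraries labelled TSP-1 null and Atf3 (−0.84) was lower. The gene of CHOP itself, Ddit3, was 6.37 ± 1.64 FPKM in NDWT and 3.59 ± 0.646 in NDKO (log2FC −0.79, FDR 0.00602), the same direction as Gdf15. It was also lower on CDAHFD, at 11.9 ± 2.66 in HFWT and 6.37 ± 0.924 in HFKO (−0.87, FDR 0.0184, SD, n = 5).

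No other gene of the table overlaps a member on the genome. Of the sequences of 31 bases in a member's transcripts, Bax shares 9.89% with Gm45808, Trp53 8.79% with the pseudogene Trp53-ps, listed at 0, and Cdkn1a 6.88% with AC167363.2.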

How the data were processed

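The authors deposited 1 table of FPKM for 20 libraries, made with QuickRNASeq; the submitters' processing notes name STAR 2.5.2, featureCounts of Subread 1.5.1 and build GRCh38, whereas the table holds mouse gene identifiers with GRCm38 coordinates. The deposited FPKM were not scaled between libraries. The tissue is the right medial lobe in the series text but the right lateral lobe in the methods. Fragments were recovered from FPKM and gene length: at least 99.974% of the values checked in a library were whole within rounding plus 0.02 fragments, and totals were 15641545 to 23276322. Duplicates could not be removed, and labels alone name the mice, so p-values measure the spread between these samples.

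Groups were taken from the labels. Differences were fitted in limma 3.58.1 (R 4.3.3; eBayes with trend) on log2(FPKM + 0.1) with all 20 libraries and a mean per group, over the 14524 genes that exceeded 0.5 FPKM in 5 libraries or more. A gene was called at a Benjamini-Hochberg FDR under 0.05 over these genes and an absolute log2FC above 0.58. Fold changes of low genes are understated on this scale. Genes low on control diet could pass the filter only through CDAHFD libraries, which favours higher calls for them in the diet comparisons. Count models were not used on FPKM. The limma script was tested on simulated data. Correlations used 100000 resamples in Python 3.11.15 with scipy 1.17.1, pandas 2.3.3 and numpy 2.4.6, and figures matplotlib 3.10.9. Promoters came from RefSeq windows of 300 bases.

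The members and all lists were chosen with earlier results of these data known. Named are the members, Thbs1 and the 5 genes most like Cdkn1a. Of the wider p53 list, at most 6 called genes in each direction were named per comparison, by FDR. Of each other list, at most 3 per comparison were named. Atf3 on control diet and Clec4f were named beyond this rule. The wider list's counts include 1 gene that is not reported here by name. Marker lists covered 8 cell types of liver and blood. Alternatives were pseudocounts of 0.01 and 1, no filter, FPKM above 1, median of ratios scaling, quantile normalization, voom on recovered fragments, only the groups compared, no trend, no fold threshold, a replicate block and each library left out.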

Additional observations from a re-analysis of the deposited data

Results flagged for a closer look

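Zmat3 was 0.996 FPKM in NDKO library 2, apart from the other 4 NDKO libraries at 0.697 to 0.781. This gap was the only one past Dixon's 95% value among 40 groups of member values, where chance gives about 1 in 20. Between diets, the genotype difference changed past the threshold for Thbs1 (interaction log2FC −2.66) and Trp53inp2 (0.62). The p53 target genes themselves gave no such call.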

How the results depend on the processing

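Over the alternatives, 1591 single gene results kept their side of the threshold, 17 newly passed, 31 no longer passed and none turned round. Scaling had the widest effect: with CDAHFD the member calls were 5 (median of ratios) and 4 (quantile) in each genotype, and those of the wider p53 list 24 and 20 in WT mice, with 21 and 15 for TSP-1 null. Leaving out 1 library gave 9 to 10 member calls in both diet comparisons. Between genotypes on control diet the wider list had 4 calls with a pseudocount of 1 and 5 to 9 without 1 library. On CDAHFD it had 0 with only the groups compared, 2 with no fold threshold and 0 to 2 without 1 library. For the interaction, members gave 1 call, Cdkn1a, with a pseudocount of 1, FPKM above 1, either scaling or voom, and 0 to 1 without 1 library. The wider list gave 1 with a pseudocount of 1, no filter or no trend, and 1 to 3 without 1 library. Of the Cdkn1a correlations 0 passed under either scaling and 0 to 2 without 1 library. The cause was not tested.

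Replicate numbers did not pair the mice: over 30 pairs of same-numbered libraries the correlation of deviations was −0.133 to 0.0812, and 6 of 20 libraries correlated best with their own number. With a replicate block the members gave 10 calls in each diet comparison, 3 and 0 between genotypes and 1 for the interaction, and the wider list 38, 38, 9, 0 and 2.

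Depth limits Phlda3 on control diet, with 7 to 32 fragments per library.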

Other observations

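Endothelial markers, for which the text above gives only counts, differed less between diets than those of stellate cells. Of 8 tested, 2 were higher in WT, Vwf (log2FC 1.05) and Lyve1 (1.10), and 4 in TSP-1 null, with Lyve1 at 1.45 and Pecam1 at 0.71. Of 5 erythroid markers tested, Alas2 was lower in WT (−0.71), and Hbb-bs (−0.70) and Hba-a1 (−0.59) were lower in TSP-1 null. Between genotypes on control diet, the urea cycle gene Cps1 was higher (1.10) and the contractile gene Acta2 lower (−1.13) in libraries labelled TSP-1 null, and no macrophage, lymphocyte, neutrophil, endothelial, cholangiocyte or erythroid marker was called.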
